A study of Homo sapiens with 42 samples.

Results

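DNA replication genes and the E2F genes that control them were described as 1 set of 43 genes out of 19775 genes measured on the arrays. The 43 were taken from a fixed list of names, and each was read through 1 probe set (a group of array probes for 1 transcript region) annotated to that gene alone, the brightest over all 42 arrays. All 43 were found. They hold 10 licensing genes that build the helicase on origins, 21 fork genes, 5 nucleotide supply genes, 5 regulators and 2 chromatin genes.

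The samples were head and neck squamous cell carcinoma (HNSCC) cell lines, with 3 arrays of each line given 100 nM cetuximab, an antibody that blocks EGFR, for 24 h, and 3 control arrays that the labels give as untreated and the study's text as PBS controls. SCC25, SQ20B and SCC61 are HPV-negative lines, and SCC047, SCC090 and 93VU147T are HPV-positive lines, as the study names them. Its text gives an EGFR amplification for SQ20B, a PIK3CA mutation for SCC61 and an HRAS variant outside the activating hotspots for 93VU147T. The 3 cetuximab arrays of SCC1 had no control here, and the 3 untreated arrays of HaCaT, an immortalised keratinocyte line, had no treated partner, so both stayed outside the comparisons. No source states that the 3 arrays of a group came from separate cultures, so the p-values measure the spread between these arrays, which may be technical.

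A cell that commits to division loads the MCM2-7 helicase onto origins in G1 with the help of ORC, CDC6 and CDT1, and in S phase CDC45, the GINS complex and MCM10 switch that helicase on. Polymerases, the PCNA clamp and its RFC loader then copy the DNA, while ribonucleotide reductase, thymidylate synthase and their partners supply the nucleotides. Most of these genes are textbook targets of E2F factors, which RB holds back until cyclin D and cyclin E kinases, downstream of growth factor receptors such as EGFR, release them.

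The promoters show the feature that gives the set its name. RefSeq promoters (GRCh38.p14, 250 bases before to 50 bases after the gene start) matched 36 of the 43 genes, all but MCM4, MCM5, GINS4, POLD3, RPA2, CCNE2 and E2F8. The words TTTCCCGC, TTTCGCGC, TTTGCCGC and TTTGGCGC, the core of the E2F site, were searched on both strands. At least 1 of them stood in 20 of the 36 promoters (55.6%), against 3.33% of all 27305 promoters and 4.36% of the 15384 promoters of genes on these arrays. Among 26 promoters of replication genes outside the set, a list described below, such a word was in 5 (19.2%). By role, the word was in 6 of 8 licensing promoters, 10 of 18 fork promoters, 2 of 3 regulator promoters, 1 of 2 chromatin promoters and 1 of 5 nucleotide promoters. MCM10, FEN1, RRM2 and CHAF1A, whose levels are also described, held none of these words in this window. The windows below show 1 word, in capitals, for 10 of the 20 genes that hold one, each read 5′ to 3′ on the strand of its gene. MCM2, MCM3 and MCM6 build the helicase, CDC6 and GINS2 load and activate it, POLE2 and PCNA work at the fork, TYMS makes thymidylate, and E2F1 and UHRF1 stand for the regulators and the chromatin genes.
MCM2 chr3:127598402-127598431, plus strand: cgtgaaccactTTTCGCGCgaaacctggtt
MCM3 chr6:52284728-52284757, minus strand: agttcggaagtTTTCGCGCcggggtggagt
MCM6 chr2:135876515-135876544, minus strand: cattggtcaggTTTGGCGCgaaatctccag
CDC6 chr17:40287875-40287904, plus strand: ggccattcggaTTTGGCGCgagcgcggctg
GINS2 chr16:85688967-85688996, minus strand: ctctcgccgtgGCGGGAAAacggcggccgc
POLE2 chr14:49688201-49688230, minus strand: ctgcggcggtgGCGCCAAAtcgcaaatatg
PCNA chr20:5126663-5126692, minus strand: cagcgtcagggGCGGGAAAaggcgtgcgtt
TYMS chr18:657603-657632, plus strand: gcgggacggccGCGGGAAAaggcgcgcgga
E2F1 chr20:33686387-33686416, minus strand: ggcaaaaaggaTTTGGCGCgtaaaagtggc
UHRF1 chr19:4909476-4909505, plus strand: gccgagttttcGCGGGAAAaaaatcagagc

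Words that begin with GCG are the same motif read on the other strand. A match is a run of letters and not a measured binding site. The motif of mitotic promoters, the CHR element TTTGAA, was in 1 of the 36 promoters (2.78%, in RRM1) and in 15.4% of all promoters. Among 9 promoters of mitosis genes, which peak in G2 and M phase, it was in 7 (77.8%), and an E2F word was in 1 (11.1%). CCAAT, a common promoter word, was in 55.6% of the promoters of the set, in all 9 mitosis promoters and in 35.7% of all promoters. In MCM7 the E2F word at the start shares bases with a CCAAT word.

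The 43 genes moved in opposite directions in different lines. With cetuximab, 35 of 43 fell in SCC25 and 36 of 43 fell in SQ20B, with none higher in either line. All 43 rose in SCC61, and 27 rose and 2 fell in SCC047. In SCC090 1 gene fell, and in 93VU147T 6 rose and 16 fell. These counts used limma with a Benjamini-Hochberg adjusted p under 0.05 over all 19775 genes, and every change below is a log2 difference, cetuximab minus control, with its standard error.

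Genes were ranked within the set by their brightest probe set, and other probe sets went beyond some of the largest and smallest changes named below. The second brightest of RRM2 rose by 2.86 in SCC61 and by 1.53 in SCC047, that of CDT1 fell there by 0.60, that of CCNE2 was at -2.01 in SQ20B, and that of MCM10 was at -0.96 in SCC25. In 93VU147T a dim probe set of GINS2 was at -0.83 and the second brightest of CDT1 at -0.55, below the fall of CHAF1A.

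The counts stand against the share of all genes called the same way. In SCC25 7.30% of all genes were lower and 8.66% higher, and in SQ20B 14.9% were lower and 18.4% higher. In SCC61 24.4% of all genes were higher and 19.8% lower. In SCC047 17.3% were higher and 19.0% lower, in 93VU147T 15.8% were higher and 18.8% lower, and in SCC090 0.516% were higher and 0.885% lower. The share of the set was far above these backgrounds in SCC25, SQ20B, SCC61 and, for rises, SCC047. In 93VU147T and SCC090 it lay nearer to the background. With each array centred on its own median, 7 genes rose and 11 fell in 93VU147T, against 21.1% and 12.2% of all genes.

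The groups of arrays were also compared for overlap. All 3 treated arrays were below all 3 controls for 41 of the 43 genes in SCC25 (16.7% of all genes) and for 39 in SQ20B (22.8%), with 1 above there, E2F8 (23.5%). In SCC61 43 of 43 were above (27.9%). In SCC047 29 were above (20.3%) and 2 below (23.5%), and in 93VU147T 9 were above (18.3%) and 20 below (23.5%). In SCC090 21 were below (8.99%), more than the 1 that passed the adjusted test.

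**Figure D1:**
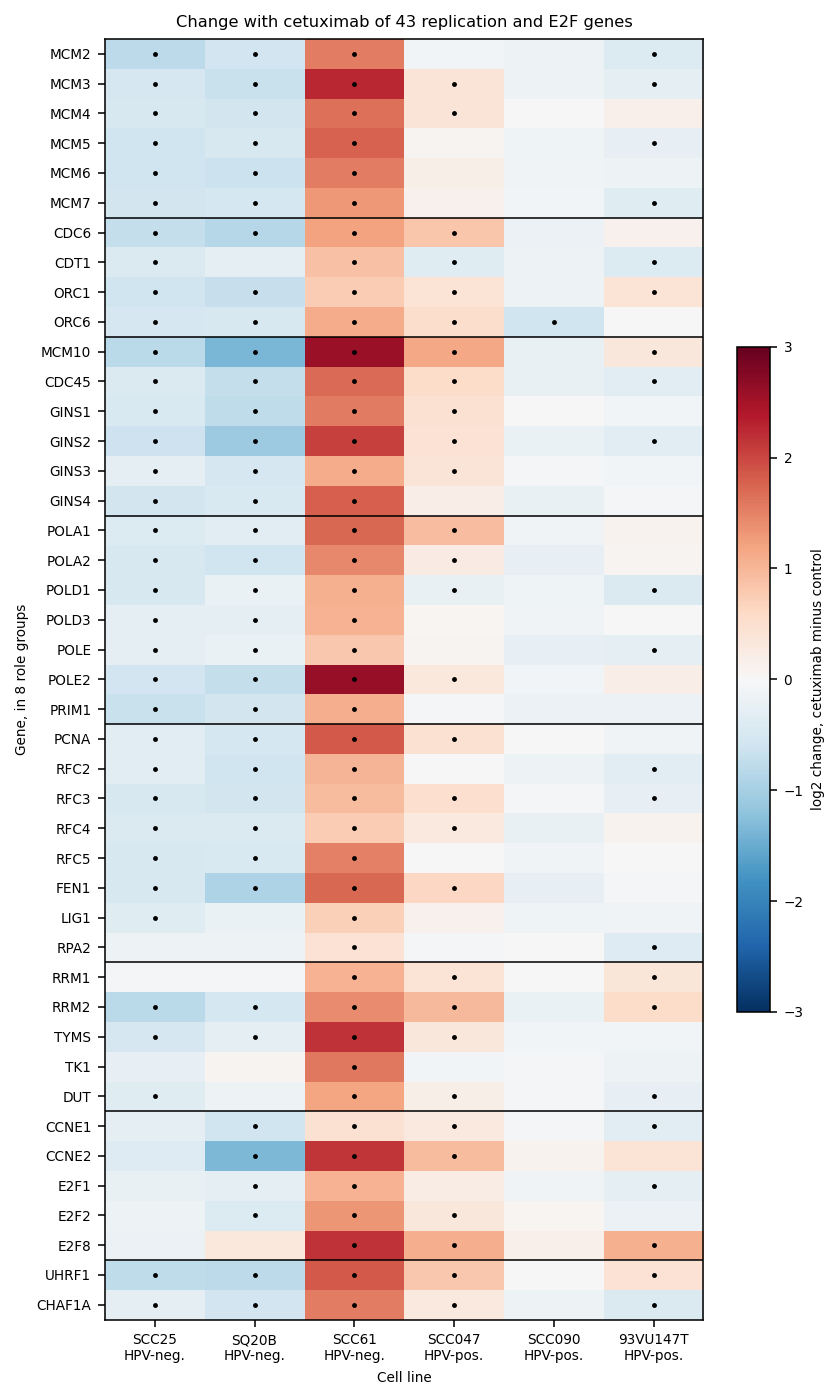
Change of each of the 43 genes (rows, in 8 role groups divided by lines) in each of the 6 lines (columns), as the log2 difference between the means of 3 cetuximab and 3 control arrays. Dots mark an adjusted p under 0.05. The SCC61 column is red in all 43 rows, and the SCC25 and SQ20B columns are blue in nearly all.

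The median change of the set was -0.48 in SCC25, -0.54 in SQ20B, 1.45 in SCC61, 0.32 in SCC047, -0.11 in SCC090 and -0.10 in 93VU147T. Over all genes the median lay between -0.04 and 0.00 in every line. The mean level over the 43 genes ran from 7.63 to 7.69 on the control arrays of SCC61 and from 9.04 to 9.15 on its treated arrays. In SCC25 it ran from 8.74 to 8.84 without and from 8.28 to 8.36 with cetuximab, and in SQ20B from 9.20 to 9.41 and from 8.71 to 8.85. Treated and control arrays did not overlap in these 3 lines. They were also apart in SCC047, at 8.92 to 9.16 without and 9.35 to 9.43 with cetuximab. In SCC090 they ran from 9.54 to 9.59 and from 9.41 to 9.49, again apart. In 93VU147T they overlapped, at 9.29 to 9.35 and 9.23 to 9.30. Of the 43 genes, 32 fell in both SCC25 and SQ20B and rose in SCC61, and 21 of those also rose in SCC047. No gene of the set was called in 1 direction in all 6 lines. For these joint patterns the share of all genes is not given, so the counts have no background to stand against. RNA levels of whole cultures cannot tell fewer cycling cells from less RNA per cell.

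The helicase genes MCM2 to MCM7, which encode the ring that unwinds the origin, fell in SCC25 and SQ20B and rose in SCC61 in 6 of 6 cases each. MCM3 was the most variable of them. In SCC61 it was at 7.18, 7.07 and 7.33 on the control arrays and 9.35, 9.42 and 9.58 on the treated arrays, a change of 2.26 ± 0.08 (SE, adjusted p = 2.16e-20). In SCC25 it went from 9.08, 9.05 and 9.17 to 8.62, 8.52 and 8.68, and in SQ20B from 9.41, 9.66 and 9.39 to 8.79, 8.86 and 8.81. All treated arrays thus lay above the controls in SCC61 and below them in the other HPV-negative lines, with changes of -0.49 ± 0.08 (adjusted p = 1.66e-05) and -0.67 ± 0.08 (adjusted p = 2.37e-08).

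The HPV-positive lines moved MCM3 less. In SCC047 it rose from 9.69, 9.70 and 9.70 to 10.11, 10.06 and 10.11 (0.40 ± 0.08, adjusted p = 9.1e-05). In 93VU147T it fell from 10.70, 10.72 and 10.79 to 10.46, 10.32 and 10.52 (-0.30 ± 0.08, adjusted p = 0.00217). In SCC090 the controls were at 10.41, 10.54 and 10.39 and the treated arrays at 10.29, 10.30 and 10.28, a difference of -0.16 that was not called (adjusted p = 0.402). Only MCM3 and MCM4 of the 6 helicase genes were called in SCC047, both higher, whereas MCM2, MCM3, MCM5 and MCM7 fell in 93VU147T.

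Of the origin loading genes, CDC6 led. CDC6 brings the helicase to ORC at the origin. It fell from 8.33, 8.32 and 8.27 to 7.69, 7.49 and 7.58 in SCC25 and from 8.71, 9.07 and 8.67 to 7.98, 8.07 and 7.83 in SQ20B. It rose from 7.56, 7.63 and 7.63 to 8.63, 8.85 and 8.94 in SCC61, and from 8.25, 8.43 and 8.59 to 9.25, 9.22 and 9.31 in SCC047. The changes were -0.72 ± 0.10, -0.86 ± 0.10, 1.20 ± 0.10 and 0.84 ± 0.10, with no overlap of treated and control arrays and adjusted p of at most 2.08e-06. In SCC090 CDC6 went from 9.01, 8.99 and 8.90 to 8.86, 8.60 and 8.89, and in 93VU147T from 8.64, 8.70 and 8.68 to 8.81, 8.74 and 8.84, neither called.

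CDT1, the partner of CDC6 in loading, and ORC6, a subunit of the origin recognition complex, differed from the other loading genes in some lines. CDT1 had the largest fall of the set in SCC047, from 9.15, 9.59 and 9.40 to 8.96, 9.01 and 9.11 (-0.35 ± 0.12, adjusted p = 0.0189). It also fell in 93VU147T, by 0.40 on the log2 scale, and rose by 0.88 in SCC61. ORC6 was the only gene of the set called in SCC090, where its controls stood at 9.68, 8.92 and 9.03 and its treated arrays at 8.85, 8.42 and 8.55 (-0.61 ± 0.15, adjusted p = 0.0342). All 3 treated arrays were below the 3 controls, and 1 control stood far above the other two. Without that array, replicate 1 of the SCC090 controls, no gene of the set was called, and the same held without cetuximab replicate 2 or cetuximab replicate 3. Without cetuximab replicate 1 or control replicate 2, 2 genes were called.

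The helicase activators MCM10, CDC45 and GINS1 to GINS4 fell in 6 of 6 cases in SCC25 and SQ20B, rose in 6 of 6 in SCC61 and rose in 5 of 6 in SCC047, where GINS4 was at 0.20 and not called. MCM10, which helps the loaded helicase begin to unwind, had the largest mean size of change of the whole set. On the controls of SCC61 it stood at 5.06, 5.02 and 5.10, and with cetuximab at 7.43, 7.78 and 7.73. In SQ20B it fell from 8.04, 8.39 and 7.95 to 6.72, 6.96 and 6.61, the largest fall of the set in that line. The changes were 2.58 ± 0.11 in SCC61 (adjusted p = 3.49e-18) and -1.36 ± 0.11 in SQ20B (adjusted p = 2.78e-11), both with separate arrays.

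MCM10 also had the largest rise of the set in SCC047, from 7.38, 7.54 and 7.86 to 8.82, 8.60 and 8.84 (1.16 ± 0.11, adjusted p = 9.13e-10). In SCC25 it fell from 8.32, 8.35 and 8.37 to 7.50, 7.59 and 7.53 (-0.81 ± 0.11, adjusted p = 3.36e-06). In 93VU147T it rose from 7.55, 7.74 and 7.80 to 8.10, 8.03 and 7.99 (0.34 ± 0.11, adjusted p = 0.0157), while CDC45 and GINS2 fell there by 0.35 each. In SCC090 it went from 8.48, 8.40 and 8.33 to 8.23, 8.26 and 8.07, which was not called. GINS2 changed by 2.04 in SCC61 and -1.08 in SQ20B, but its second brightest probe set, which is much dimmer, read -0.03 and -0.34.

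**Figure D2:**
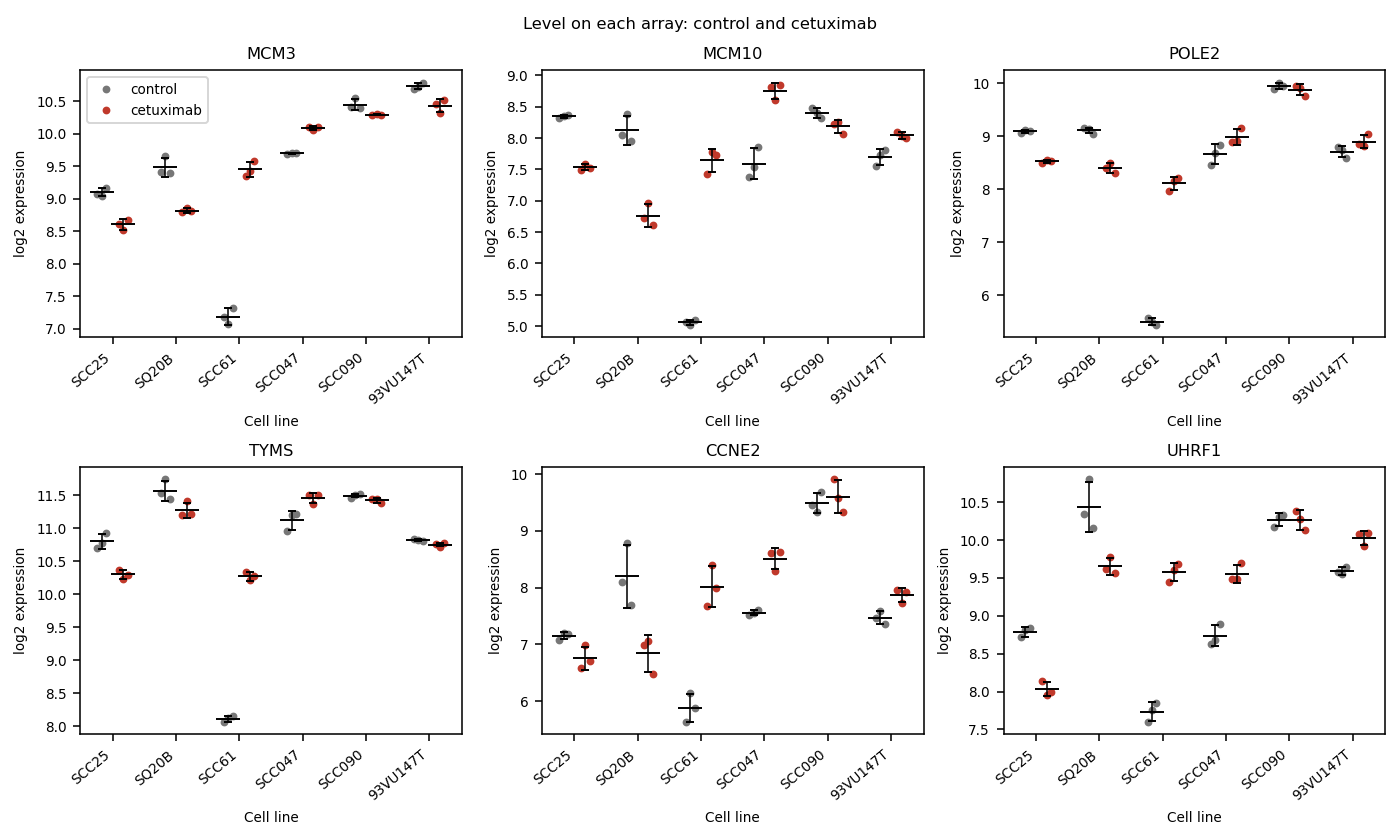
Level of 6 genes on each array (dots, log2 expression) in the 6 lines, grey for control and red for cetuximab, with the mean as a horizontal bar and the SD of 3 arrays as whiskers. The axes differ between genes and do not start at 0. The 3 grey SCC61 dots are the lowest in all 6 panels.

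The polymerase and primase genes all fell in SCC25 and SQ20B (7 of 7 each) and rose in SCC61 (7 of 7). POLE2, the second subunit of the leading strand polymerase, had the largest rise of the set in SCC61. Its controls there read 5.57, 5.49 and 5.45 and its treated arrays 7.97, 8.16 and 8.20, a change of 2.60 ± 0.09 (adjusted p = 2.16e-20), or 6.08-fold. In SCC25 POLE2 fell from 9.05, 9.11 and 9.10 to 8.50, 8.55 and 8.53, and in SQ20B from 9.15, 9.13 and 9.05 to 8.40, 8.50 and 8.31. The treated SCC61 arrays therefore ended below the treated arrays of both these lines although POLE2 had risen. It rose in SCC047 from 8.46, 8.69 and 8.83 to 8.88, 8.91 and 9.16 (0.32 ± 0.09, adjusted p = 0.00416). In SCC090 the arrays overlapped, at 9.89, 10.01 and 9.95 against 9.95, 9.91 and 9.76, and in 93VU147T the 0.19 was not called (8.79, 8.74 and 8.59 against 8.85, 8.81 and 9.04).

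POLA1, the catalytic subunit of the polymerase that starts each strand, rose in SCC61 (1.72) and SCC047 (0.92). POLD1, the catalytic subunit of the lagging strand polymerase, rose in SCC61 (1.07) and fell in SCC047 (-0.23), in 93VU147T (-0.43), in SCC25 (-0.48) and in SQ20B (-0.19). With each array centred on its own median, neither POLD1 nor CDT1 was called lower in SCC047.

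Of the 8 clamp, clamp loader and strand processing genes, 7 fell in SCC25, 6 fell in SQ20B and 8 rose in SCC61. FEN1, the nuclease that trims the flaps of Okazaki fragments, led the group. It fell from 10.95, 11.27 and 10.80 to 10.02, 10.23 and 9.98 in SQ20B (-0.93 ± 0.09, adjusted p = 1.04e-09) and from 9.67, 9.66 and 9.82 to 9.20, 9.23 and 9.25 in SCC25 (-0.49 ± 0.09, adjusted p = 0.000185). In SCC61 it rose from 8.33, 8.43 and 8.37 to 9.99, 10.10 and 10.20 (1.72 ± 0.09, adjusted p = 3.34e-16), and in SCC047 from 9.90, 10.12 and 10.19 to 10.74, 10.66 and 10.64 (0.61 ± 0.09, adjusted p = 2.14e-06). Treated and control arrays were apart in all 4 lines. FEN1 in SCC090 read 10.51, 10.56 and 10.48 against 10.30, 10.38 and 10.16, and in 93VU147T 10.47, 10.45 and 10.39 against 10.38, 10.41 and 10.38, neither called. PCNA, the sliding clamp, changed by 1.83 in SCC61. RPA2, a subunit of the protein that coats single-stranded DNA, had the smallest rise of the set in SCC61 (0.43) and was not called in SCC25, SQ20B or SCC047.

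The nucleotide genes were less uniform. RRM1 and RRM2 encode the large and the small subunit of ribonucleotide reductase, and only the second fell in SCC25 and SQ20B. RRM2 had the largest fall of the set in SCC25, from 11.21, 11.23 and 11.41 to 10.58, 10.36 and 10.49 (-0.81 ± 0.11, adjusted p = 1.91e-06), and fell in SQ20B from 11.23, 11.52 and 11.39 to 10.80, 10.89 and 10.83. RRM1 was at -0.06 in both lines (adjusted p = 0.618 and 0.491). The difference between the subunits was not tested. RRM2 rose in SCC61 from 11.09, 11.12 and 10.95 to 12.51, 12.42 and 12.51, in SCC047 from 10.23, 10.71 and 10.94 to 11.70, 11.55 and 11.51, and in 93VU147T from 10.11, 10.05 and 10.16 to 10.65, 10.72 and 10.63. These rises of 1.43, 0.96 and 0.56 (SE 0.11 each) all passed with separate arrays, and in SCC090 the arrays went from 11.77, 11.87 and 11.66 to 11.52, 11.65 and 11.55 without a call. The second brightest probe set of RRM2 kept these directions with other sizes, at 2.86 in SCC61, 1.53 in SCC047, 0.59 in 93VU147T, -0.75 in SCC25 and -1.05 in SQ20B.

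TYMS, thymidylate synthase, went from 8.07, 8.13 and 8.16 to 10.34, 10.21 and 10.27 in SCC61, a rise of 2.16 ± 0.08 (adjusted p = 1.02e-19). It fell by 0.50 in SCC25 and by 0.29 in SQ20B and rose by 0.34 in SCC047. TK1, the salvage thymidine kinase, was called in SCC61 alone (1.58).

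Among the regulators, the E2F genes and the 2 cyclin E genes split. In SCC25 none of the 5 was called, in SQ20B 4 fell, in SCC61 5 rose and in SCC047 4 rose. CCNE2, cyclin E2, fell in SQ20B from 8.10, 8.79 and 7.70 to 7.00, 7.06 and 6.47 (-1.35 ± 0.19, adjusted p = 1.65e-06). It rose in SCC61 from 5.64, 6.14 and 5.88 to 7.67, 8.39 and 7.99 (2.14 ± 0.19, adjusted p = 8.72e-11) and in SCC047 from 7.53, 7.55 and 7.60 to 8.61, 8.29 and 8.62 (0.95 ± 0.19, adjusted p = 0.000223). Its arrays spread more than those of the other leading genes but were apart in these 3 lines. CCNE2 was not called in SCC25 (7.08, 7.20 and 7.18 against 6.59, 6.98 and 6.71), in 93VU147T (7.46, 7.59 and 7.36 against 7.97, 7.74 and 7.93) or in SCC090 (9.45, 9.33 and 9.69 against 9.91, 9.58 and 9.33). CCNE1, cyclin E1, moved far less in SCC61 (0.47 ± 0.10), and its second, dim probe set read -0.01 there.

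E2F1 and E2F2, which activate these genes, rose in SCC61 by 1.04 and 1.32 and fell in SQ20B by 0.29 and 0.42. E2F8, a repressor made in S phase that is itself an E2F target, was called lower in no line, with -0.18 in SCC25 as its lowest change. In 93VU147T it had the largest rise of the set, from 5.79, 5.71 and 6.28 to 7.09, 6.70 and 7.20 (1.08 ± 0.16, adjusted p = 2.02e-06), and it rose as much in SCC047, from 5.31, 5.45 and 5.76 to 6.64, 6.33 and 6.79. In SCC61 it rose from 5.77, 5.78 and 5.92 to 7.77, 8.19 and 8.03 (2.17 ± 0.16, adjusted p = 4.07e-13). In SQ20B all 3 treated arrays were above the controls (7.26, 7.48 and 7.20 against 7.73, 7.68 and 7.48), but the 0.32 was not called (adjusted p = 0.12).

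The chromatin genes are UHRF1, which keeps DNA methylation through replication, and CHAF1A, which loads histones behind the fork. UHRF1 fell in SCC25 from 8.72, 8.82 and 8.84 to 8.14, 7.96 and 8.001 and in SQ20B from 10.34, 10.80 and 10.16 to 9.62, 9.78 and 9.56. It rose in SCC61 from 7.60, 7.76 and 7.85 to 9.45, 9.61 and 9.69, in SCC047 from 8.63, 8.68 and 8.89 to 9.49, 9.48 and 9.70, and in 93VU147T from 9.58, 9.55 and 9.64 to 10.08, 9.92 and 10.09. The changes were -0.76, -0.78, 1.84, 0.82 and 0.44 (SE 0.11 each), all called and all with separate arrays. SCC090 read 10.17, 10.31 and 10.33 against 10.39, 10.28 and 10.13, with full overlap. CHAF1A parted from UHRF1 in 93VU147T, where it had the largest fall of the set, from 8.98, 8.93 and 9.001 to 8.51, 8.57 and 8.50 (-0.44 ± 0.08, adjusted p = 5.21e-05).

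Genes with and without an E2F word had near medians in SCC25 and SQ20B. In SCC25 the median change was -0.48 over 20 genes with the word and -0.46 over 16 without it, and in SQ20B it was -0.54 and -0.55. In SCC61 it was 1.49 and 1.14, with ranges of 0.72 to 2.60 and 0.47 to 2.58 that overlapped. These medians are a description with no test.

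The lines differed in their response beyond the spread between arrays. A moderated F test over the 6 changes called 43 of 43 genes (59.0% of all genes), and the change in SCC61 exceeded the mean change of the other 5 lines for 43 of 43 (22.6% of all genes), with a median excess of 1.65 and adjusted p of at most 3.35e-05. SCC61 was singled out with earlier results of these data known. Its change was the largest of the 6 lines for all 43 genes, as it was for 23.0% of all genes. In SCC61 35 of the 43 genes rose at least 2-fold and 7 at least 4-fold, while 4.29% of all genes rose at least 2-fold and were called.

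Averaged over the 6 lines with equal weight, 21 genes were higher and 3 lower, against 22.8% and 23.1% of all genes. That mean rests on SCC61. Without it, 2 genes were higher and 33 lower, against 17.7% and 19.1% of all genes. Under quantile normalization of all 6 lines 14 genes were higher and 7 lower, against 20.5% and 22.7% of all genes.

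SCC61 started low. Without cetuximab, 42 of the 43 genes were lower in SCC61 than in the mean of the other 5 lines, where 30.5% of all genes were lower, with a median difference of -1.50. POLE2 stood 3.60 below the other lines, TYMS 3.04, MCM10 2.97 and MCM3 2.70, on the log2 scale with SE of 0.06 to 0.09. SCC61 was the lowest of the 6 untreated lines for 37 of the 43 genes and for 18.7% of all genes. At least a 2-fold deficit was seen for 36 genes and at least a 4-fold deficit for 9, while 5.75% of all genes were called with a 2-fold deficit. RRM2 was the exception at 0.02 ± 0.08 (adjusted p = 0.887), but its second brightest probe set read -1.50.

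With cetuximab the typical gene stood level with the other lines. Treated SCC61 against the treated mean of the other lines had a median difference of 0.01, with 15 genes higher and 12 lower, against 24.3% and 25.0% of all genes. RRM2 stood 1.45 above the other lines, E2F8 and POLD3 0.76 above, and POLE2 0.83, TYMS 0.77, CCNE1 0.73 and RPA2 0.70 below. The untreated difference and the change in SCC61 share the SCC61 control arrays, so they are not independent of each other.

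**Figure D3:**
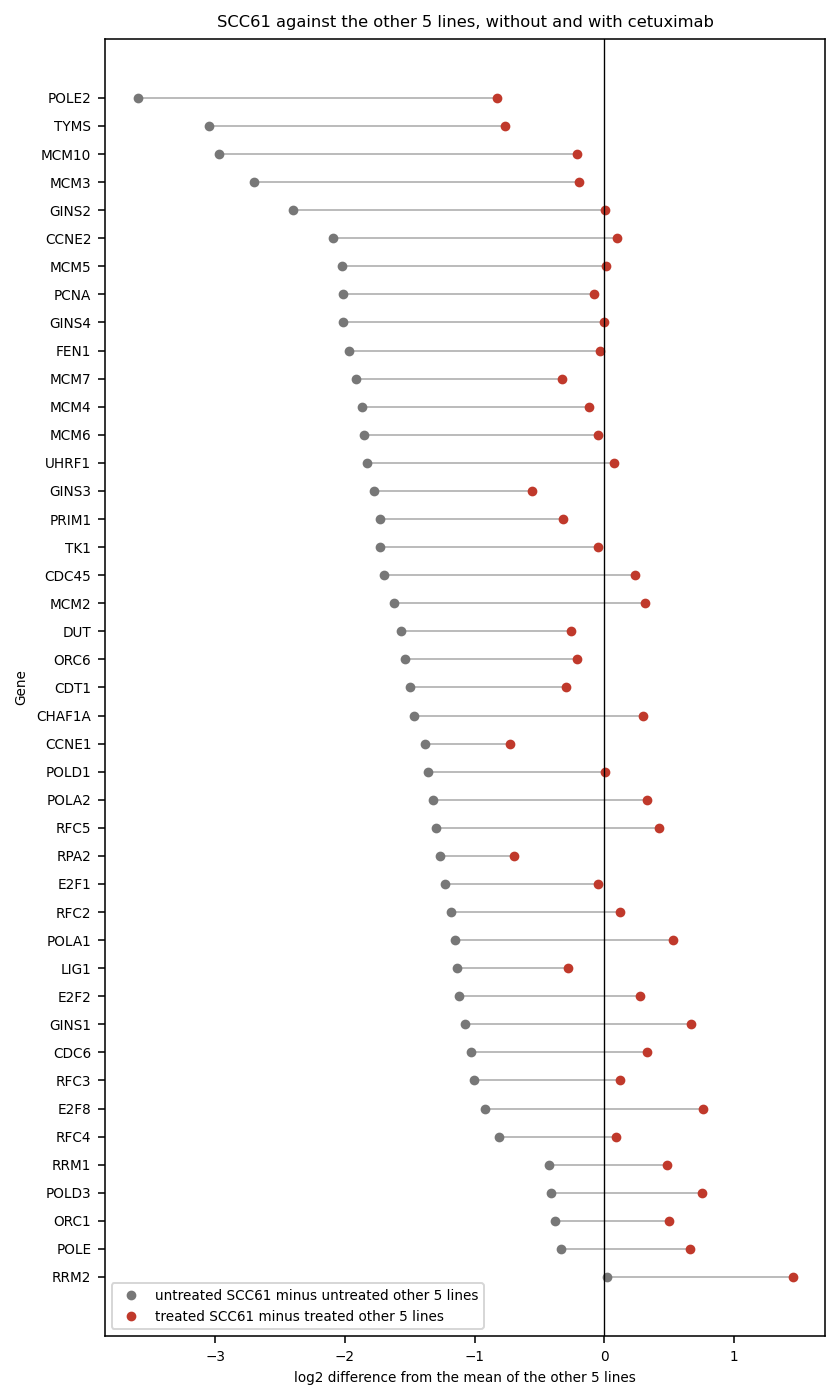
Level of each gene in SCC61 minus the mean of the other 5 lines (log2), for untreated arrays in grey and cetuximab arrays in red, with a line joining both. The genes are sorted by the untreated difference. The grey points run from -3.60 (POLE2) to 0.02 (RRM2) and the red points from -0.83 to 1.45.

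Among the treated lines SCC25 was the lowest for 32 of the 43 genes, a place it held for 2 genes without treatment. Of all genes it was the lowest for 15.3% with and 11.5% without cetuximab. The median range of the 43 genes between the 6 lines was 2.04 without and 1.55 with cetuximab, and it narrowed for 36 of 43 genes (60.5% of all genes). Leaving out SCC61, the range widened from 1.16 to 1.47. The study's methods measured survival as colony area after 7 days of treatment relative to PBS controls. The labels give 1 cetuximab survival value per line without a unit or a time, read here as a percentage. SCC25 had 7.61%, SQ20B 28.65%, SCC047 31.2%, 93VU147T 35.57%, SCC090 39.07% and SCC61 40.16%. In that order of lines the median change of the set was -0.48, -0.54, 0.32, -0.10, -0.11 and 1.45. SQ20B thus had a larger median fall than SCC25, and SCC090, next to SCC61 in survival, had 1 gene called. A relation of survival to the change was not tested.

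Other genes of the same pathways, 31 replication, 7 nucleotide supply and 16 E2F and RB genes, followed less uniformly. Of the 31 other replication genes, 21 fell and 2 rose in SCC25, 15 fell and 2 rose in SQ20B, 24 rose and none fell in SCC61, and 16 rose and 3 fell in SCC047. In 93VU147T 13 rose and 6 fell, and in SCC090 1 fell. Of the 7 nucleotide genes, 6 fell in SCC25, 5 fell and 1 rose in SQ20B, 4 rose and 1 fell in SCC61 and 3 rose in SCC047, and in 93VU147T 3 rose and 2 fell. The 16 E2F and RB genes had 7 fallen in SCC25, 8 fallen and 3 risen in SQ20B, 9 risen and 4 fallen in SCC61, 9 risen and 3 fallen in SCC047 and 5 risen and 4 fallen in 93VU147T. None of these nucleotide, E2F or RB genes was called in SCC090 by limma, where 1 nucleotide gene and 2 of the others had an unadjusted p under 0.05.

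Mitosis genes had other medians than the 43 replication and E2F genes in SQ20B and 93VU147T. Of 10 mitosis genes, among them the cyclin gene CCNB1 and the kinase genes AURKA and PLK1, 1 rose and 1 fell in SQ20B with a median of 0.09, where the 43 genes had a median of -0.54. In 93VU147T all 10 rose with a median of 0.86, where the 43 genes had -0.10. CENPF, a kinetochore gene, rose there by 1.53 and MKI67, the Ki-67 proliferation antigen, by 1.33. In SCC25 7 of the 10 fell (median -0.41), in SCC61 8 rose (0.58), in SCC047 8 rose (0.52) and in SCC090 none was called (0.03), with 1 gene at an unadjusted p under 0.05 by limma. Untreated SCC61 was not low throughout the mitosis genes, with 5 higher and 3 lower than in the other lines. Of all genes 30.5% were lower there, and the share of all genes called higher is not given. The difference between the lists was not tested.

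**Figure D4:**
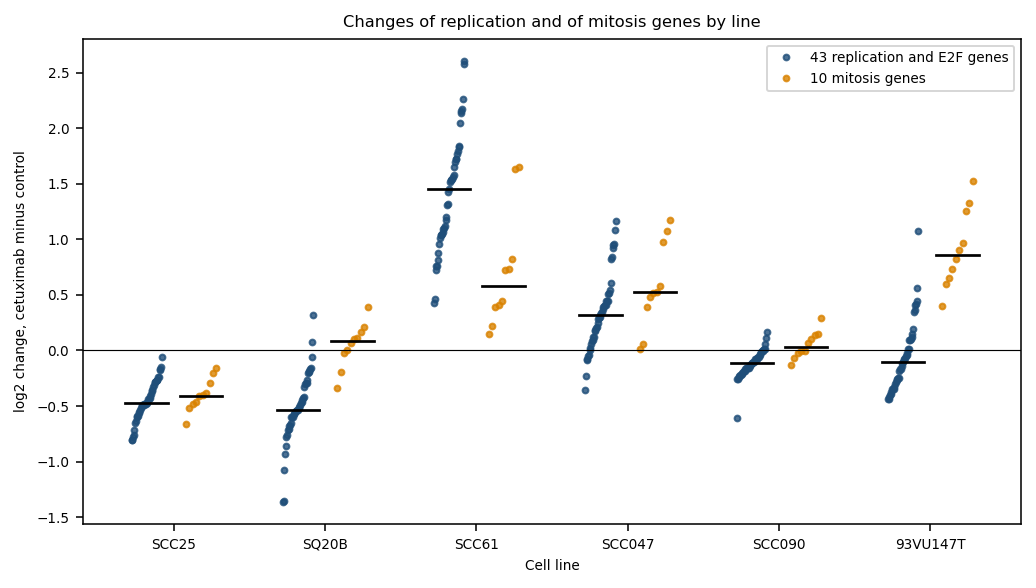
Change with cetuximab (log2, y axis) of each of the 43 replication and E2F genes (blue) and of 10 mitosis genes (orange) in the 6 lines, with the median of each as a black bar. The medians of both lists lie on the same side of 0 in SCC25, SCC61 and SCC047. They lie on opposite sides in SQ20B (-0.54 and 0.09), SCC090 (-0.11 and 0.03) and 93VU147T (-0.10 and 0.86).

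Genes that the ERK pathway switches on, such as the phosphatase gene DUSP6, were called lower or were not called. Of 8 such genes, 6 fell in SCC25, 8 in SQ20B, 8 in SCC61, 3 in SCC047, 5 in SCC090 and 6 in 93VU147T, and none was called higher. In SCC61, where all 43 replication genes rose, DUSP6 fell by 3.13 (adjusted p = 3.51e-11).

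Cell type markers and RNA quality were read beside these results. Of 8 squamous markers 5 could be tested. KRT5, a basal keratin, was at 10.6 or more in every group, but its partner KRT14 was at 4.85 in untreated SQ20B and 5.77 in untreated SCC090 against 14.2 in SCC25. The summed log2 level of the 5 markers lay between 58.97 and 59.42 on the controls and between 60.18 and 60.61 on the treated arrays of SCC25, and in SCC61 between 53.22 and 53.40 and between 54.42 and 54.88. The sums of the treated arrays lay above those of the controls in all 6 lines, but single markers differed. Called higher were 2 markers in SCC25 and in SCC61, 3 in SQ20B, SCC047 and 93VU147T, and 1 in SCC090. EPCAM was called lower in SQ20B (-0.31), and in SCC047 KRT5 was at -0.09 and KRT14 at -0.24 without a call. Of 6 fibroblast markers 4 were higher in SCC25, where LUM reached 9.34, and the summed level lay between 38.52 and 39.08 on the controls and between 41.49 and 42.00 on the treated arrays. In SQ20B 2 were higher, in SCC61 3 were higher, and in SCC047 and 93VU147T 2 were lower. Of 6 leukocyte markers 5 could be tested, and PTPRC, which defines leukocytes, stayed between 3.87 and 4.30. CD14 reached 7.87 in treated SCC1 and LAPTM5 7.51 in untreated SCC047. In SCC25 1 leukocyte marker was higher, CD14 by 0.64, and 1 was lower. In SQ20B 2 were lower, in SCC047 and 93VU147T 1 each, and in SCC090 0 were called. In SCC61 3 leukocyte markers were lower, with LAPTM5 down by 1.28. The part of these markers in the result was not tested.

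Probes at the 3′ and 5′ ends of the ACTB control transcript, whose difference grows as RNA degrades, differed more on treated arrays in SQ20B (shift 0.289), SCC047 (0.111) and SCC25 (0.0674), with no overlap (exact permutation p = 0.1, two-sided, the smallest that 3 against 3 arrays allow). In SCC61 the shift was 0.0588 with overlap (exact permutation p = 0.4). The same difference for GAPDH was also larger on treated arrays in SQ20B (0.0749) and SCC047 (0.0402), without overlap (exact permutation p = 0.1), but in SCC25 its shift was 0.00328 with overlap (exact permutation p = 0.9). The part of RNA quality in the changes was not tested. Replicate 3 of the SQ20B controls was scanned with another set of arrays than the other 35 arrays of the comparisons, and with scan batch as a term 36 genes still fell in SQ20B.

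By HPV status the untreated levels leaned higher in the HPV-positive lines but did not separate with the line as the replicate. Comparing 3 HPV-positive with 3 HPV-negative lines, limma called none of the 43 genes (0.0152% of all genes, 3 genes), with a lowest adjusted p of 0.446 for LIG1, a DNA ligase. At an unadjusted p under 0.05 it had 7 of 43, while 8.30% of all genes passed that mark. The difference was positive for 40 of 43 genes, with a median of 0.75, against a median of 0.0082 over all genes. All HPV-positive lines lay above all HPV-negative lines for 12 of the 43 genes, against 7.81% of all genes. Without SCC61 the median was 0.35 and 33 genes were positive. The share of all genes with a positive difference is not given.

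MCM3 had the largest difference. Its mean of 3 control arrays was 9.70 in SCC047, 10.4 in SCC090 and 10.7 in 93VU147T, and 9.10 in SCC25, 9.49 in SQ20B and 7.19 in SCC61. The HPV-positive lines were all above, by 1.70 ± 0.67 (adjusted p = 0.600, 95% interval -0.000354 to 3.40, exact permutation p = 0.1), and by 1.00 without SCC61. CCNE1 stood at 8.08, 8.01 and 7.83 in the HPV-positive lines and at 6.35, 7.63 and 6.20 in SCC25, SQ20B and SCC61 (1.25 ± 0.41, adjusted p = 0.530, interval 0.219 to 2.27, exact permutation p = 0.1). RRM2 had the largest difference the other way, with means of 10.6, 11.8 and 10.1 against 11.3, 11.4 and 11.1 (-0.41 ± 0.44, interval -1.52 to 0.705), and the lines overlapped. Its second brightest probe set read -1.50 for untreated SCC61 against the other lines, and the HPV difference by that probe set is not given. Counting the arrays as replicates instead, all 43 genes were called, 40 higher and 3 lower, against 31.5% and 26.0% of all genes, but arrays of 1 line are not separate tumours. With the line as a random block, 7 were called, all higher, against 2.85% of all genes.

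**Figure D5:**
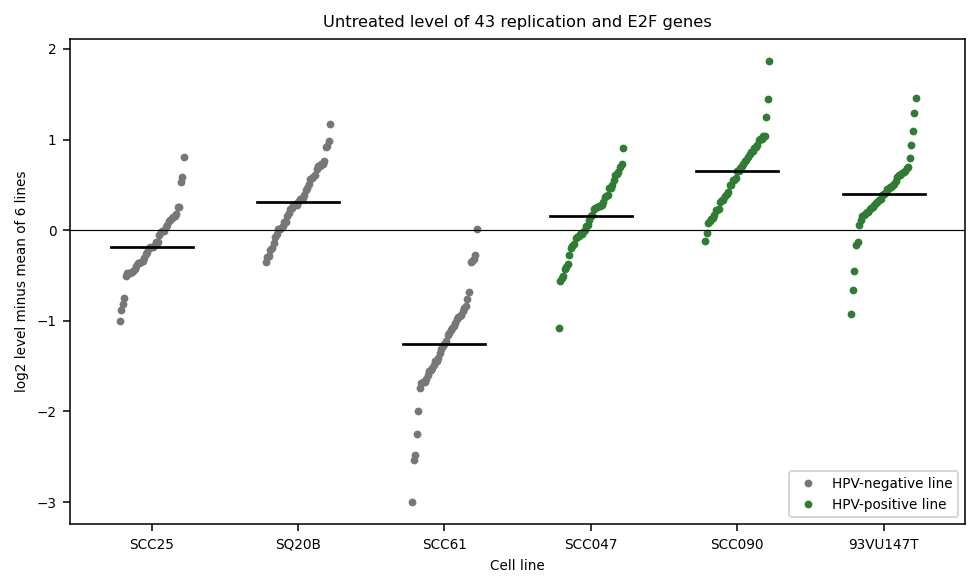
Untreated level of each of the 43 genes in each line minus the mean of the 6 lines (log2), sorted within a line, grey for HPV-negative and green for HPV-positive lines, with the median as a black bar. The median lies at -1.25 in SCC61, at -0.19 in SCC25 and above 0 in the other 4 lines, SQ20B (0.31) included.

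The change with cetuximab was compared by HPV status in the same way. None of the 43 genes was called and none of all 19775 (0% of all genes), with 0 of the 43 at an unadjusted p under 0.05 by limma. The median difference in change, HPV-positive minus HPV-negative, was -0.15, and 0.48 without SCC61, when 42 of 43 genes were positive. The share of all genes positive there is not given. RRM2 had the largest positive difference (0.42 ± 0.63, interval -1.10 to 1.93) and TK1 the largest negative one (-0.57 ± 0.46, interval -1.68 to 0.533). Each interval holds 0. Taking arrays as replicates, 25 genes were called, 5 higher and 20 lower, against 14.9% and 22.3% of all genes.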

How the data were processed

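Total RNA of 42 samples was hybridised to Affymetrix hgu133plus2.0 arrays. The authors normalized the arrays with fRMA, and the deposited values are log2 intensities of 54675 probe sets (2.62 to 14.5, array medians 5.09 to 5.16). The study's methods also name a batch correction (pSVA), and it is not stated whether the deposited values carry it. The number of arrays limits the precision.

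Of the probe sets, 41091 had 1 gene symbol in GEO's platform annotation, 1801 had several and 11721 none listed; 62 controls were left out. Identifiers matched RefSeq for 41037 and no symbol changed. The brightest single-gene probe set over 42 arrays stood for each of 19775 genes. Linear models in limma 3.58.1 (R 4.3.3) fitted 12 group means to 36 arrays, with Benjamini-Hochberg adjustment over all genes and a threshold of 0.05. For HPV status, 1 value per line was fitted (3 against 3). The pipeline was tested on simulated data.

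The 43 genes, their role groups, the other gene lists and the tests were chosen with earlier results of these data known. Named with all arrays are the largest called rise and fall per line, the leading gene of each role group by mean size of change, and the largest HPV differences; E2F8, TYMS and other named genes were added for their role. Alternatives covered the probe set per gene, centring, quantile normalization, dim genes (mean under 5), moderation, a minimum change of 0.5, a replicate block, scan batch, the arrays in the fit and leaving out arrays or lines. Of 18 pairs of arrays with the same number, 7 had deviations that correlated over 0.1 (range -0.15 to 0.32), so the numbers were not taken to pair samples. In the promoters only the spelled words were searched, without mismatches.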

Additional observations from a re-analysis of the deposited data

Results flagged for a closer look

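By the moderated F test in limma, the change with cetuximab differed between the 6 lines for 43 of the 43 replication and E2F genes. The same test called 59.0% of all genes. The change in SCC61 was above the mean of the other 5 lines for 43 of 43, against 22.6% of all genes. Both counts stood out because the lines went in opposite directions under 1 treatment, and both stayed at 43 with any 1 array left out. SCC61 was singled out with earlier results of these data known.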

How the results depend on the processing

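In SCC25, SQ20B, SCC61 and SCC047 the main direction held under each alternative run, while the number called moved by over 1.5 times where a log2 change of at least 0.5 was also asked: 15 genes in SCC25 and 11 in SCC047, 2 in 93VU147T (both higher, so the majority turned), 1 in the mean of 6 lines and 11 for treated SCC61. In SCC090 2 genes were called with the mean of all probe sets, the probe set with the highest ratio of median absolute deviations, dim genes left out or all 42 arrays, and 0 with the arrays of the line alone. With the replicate number as a block, SCC090 had 2 genes called and no other count moved by over 1.5 times. With arrays as replicates 43 genes differed by HPV status untreated and 25 in their change, and with the line as a random block 7 did untreated. With each array centred, 93VU147T had 7 genes higher and 11 lower. The share of all genes is not given for the cutoff of 0.5, for the SCC090 alternatives or for arrays left out. Those counts have no background to stand against. The causes were not tested.

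Leaving out 1 array gave 30 to 36 genes in SCC25, 32 to 36 in SQ20B, 43 to 43 in SCC61, 22 to 30 in SCC047, 0 to 2 in SCC090 and 18 to 24 in 93VU147T, 41 to 42 for untreated and 26 to 28 for treated SCC61, and 43 to 43 for the test between lines. The mean of 6 lines ranged from 16 (without SCC047) to 35 (without SCC61, mostly lower). No HPV comparison called a gene with any array or line left out.

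Other probe sets reversed a few genes. The second brightest read 0.0418 for RFC5 and 0.0705 for POLA2 in SCC25, -0.0255 for GINS2 and -0.00753 for CCNE1 in SCC61, -0.17 for GINS2 in SCC047 and 0.26 for RFC5 in 93VU147T. For untreated SCC61 against the other lines it read 0.19 for RFC5, 0.0485 for CCNE1 and -1.50 for RRM2. RRM2 read -0.74 there by the mean of its probe sets and -1.50 by the ratio of median absolute deviations, which also gave 0.19 for RFC3 in SQ20B.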

Other observations

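The arrays outside the comparisons gave the following levels. Treated SCC1, an HPV-negative line, had a mean over the 43 genes of 9.40 to 9.48. Of its genes 35 lay within the range of the 6 treated lines and 8 above it. Untreated HaCaT had a mean of 8.63 to 8.69, with 42 genes within the range of the 6 untreated lines and 1 below. Both groups were scanned apart from most other arrays, and no test was made.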
